A study of Homo sapiens with 6 samples.

Results

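The folate one-carbon enzymes move single carbon units between serine, folate and the pathways that use them, and their mRNAs were followed here in the human bladder cancer line T24, grown in high-glucose DMEM with fetal bovine serum. The set held 9 genes, chosen by symbol from a deposited table of 54261 gene symbols: MTHFD2, MTHFD1L, MTHFD2L, SHMT2 and ALDH1L2 of the mitochondrial arm, MTHFD1, SHMT1 and ALDH1L1 of the cytosolic arm, and the folate carrier SLC19A1. RNA was sequenced from 3 libraries of cells infected with a lentivirus carrying a short hairpin RNA against MTHFD2 (shMTHFD2, the hairpin the titles call MTHFD2-shRNA2) and from 3 libraries of cells infected with a negative control lentivirus (NC). Both constructs carried ZsGreen and a puromycin resistance marker, and cells of both groups were selected with puromycin; whether the selected lines were pools or clones is not stated. The titles name a hairpin, so the treatment is called a knockdown here although the design text speaks of a knockout. The treatment protocol speaks of hairpins numbered 1 to 3, and all the shMTHFD2 libraries carry number 2, so effects of the target and of that hairpin's sequence cannot be told apart. Separate cultures are not named for the 3 replicates of a group, and p-values therefore cover only the spread between these libraries, which may be technical.

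In mitochondria, SHMT2 takes a carbon from serine and loads it on tetrahydrofolate, MTHFD2 or MTHFD2L oxidises the carrier, and MTHFD1L releases the carbon as formate. In the cytosol, MTHFD1 loads formate back on folate for purine and thymidylate synthesis, and SHMT1 interconverts serine and glycine. ALDH1L1 in the cytosol and ALDH1L2 in mitochondria burn formyl-folate to carbon dioxide while making NADPH. MTHFD2 is known as an embryonic enzyme that is low in most adult tissues and high in many tumours.

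Libraries held 18452506 to 19896302 counts in the shMTHFD2 group and 17801990 to 19978392 in the NC group. A count of 0 in a library allows up to 3 counts, or 0.149 to 0.171 CPM (counts scaled by library size), which covers counting error only since the labels record no molecular tags. The keratins KRT7, KRT8 and KRT18 and the mesenchymal gene VIM were abundant, while the urothelial markers KRT5, TP63, UPK2 and UPK3A held at most 6 counts in any library and EPCAM, CDH1, GATA3 and KRT19 at most 11. Of the other urothelial markers, PPARG held 291 to 352 counts in shMTHFD2 and 287 to 313 in NC libraries, and UPK1B 57 to 82 in shMTHFD2 and 84 to 101 in NC libraries. UPK1A held 20 to 37 counts in shMTHFD2 and 6 to 9 in NC libraries (log2 fold change 1.72, edgeR adjusted p = 0.0141). The abundant keratins went the other way, with KRT8 at -1.27 (edgeR adjusted p = 1.9e-04) and KRT18 at -0.89 (edgeR adjusted p = 0.00157). KRT7 at -0.35, UPK1B at -0.45 and PPARG at 0.04 did not pass (edgeR adjusted p = 0.104, 0.141 and 0.836). Of the mesenchymal genes, VIM at -0.45 and AXL at -0.43 passed and CDH2 at 0.28 did not (edgeR adjusted p = 0.0259, 0.00972 and 0.255). Fibroblast markers (10 genes, of which THY1 was at 0 in NC replicates 1 and 3) summed to 46.5, 12.2 and 40.6 CPM in shMTHFD2 replicates 1, 2 and 3, against 7.3, 9.31 and 7.86 CPM in NC replicates 1, 2 and 3. COL1A1, COL1A2, COL3A1, SPARC and DCN passed as higher, at 1.83 to 2.28 on the log2 scale (edgeR adjusted p up to 0.021). LUM at 1.13 did not pass (edgeR adjusted p = 0.0831), and POSTN, THY1, PDGFRA and PDGFRB were too low to be tested. Leukocyte markers summed to at most 56 counts and endothelial markers to at most 53 counts in a library. Only CDH5 and CD68 of these were tested. The endothelial CDH5 was at -1.18 and passed, and the leukocyte CD68 did not (edgeR adjusted p = 0.0333 and 0.999). The part of these markers in the results below was not tested. Values from shMTHFD2 replicate 2 alone are given beside the calls of members, but not beside those of other genes. In bulk RNA, fewer cells of a type and less RNA per cell cannot be told apart.

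MTHFD2 itself fell most, SHMT2, MTHFD1L and SLC19A1 fell by smaller amounts, and ALDH1L2, near the detection limit in NC libraries, rose. Of the 9 genes, 8 passed the filter on low counts, and 5 of these 8 had an edgeR adjusted p under 0.05, 4 lower and 1 higher. The higher one, ALDH1L2, passed that filter only through the shMTHFD2 libraries, which favours a higher value, and it was not tested under a stricter filter. Across all 13896 genes tested, 17.3% passed, 7.58% lower and 9.71% higher in the shMTHFD2 libraries. The median log2 fold change was -0.28 over the 8 members and 0.01 over all tested genes. The 2 groups did not overlap in CPM for 6 of the 8 members, against 39.1% of all tested genes. All shMTHFD2 libraries lay below all NC libraries for 5 members, against 19% of all tested genes, and above them for 1 member, against 20.1%. These members were picked as a pathway with earlier results of the same data known, so the counts describe the set. They also include MTHFD2, the target of the hairpin. Without MTHFD2, 4 of 7 tested members passed, 3 lower and 1 higher. The median log2 fold change of these 7 was -0.23, and the groups did not overlap for 5 of them. With NC replicate 3 left out, MTHFD2 was the only member past the threshold, and the count over all genes was 986. The count of members was 3 without NC replicate 1, NC replicate 2 or shMTHFD2 replicate 2. In these fits 1003 of 14277, 1679 of 14239 and 1469 of 14166 genes passed, against 2402 of 13896 with all libraries.

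**Figure D1:**
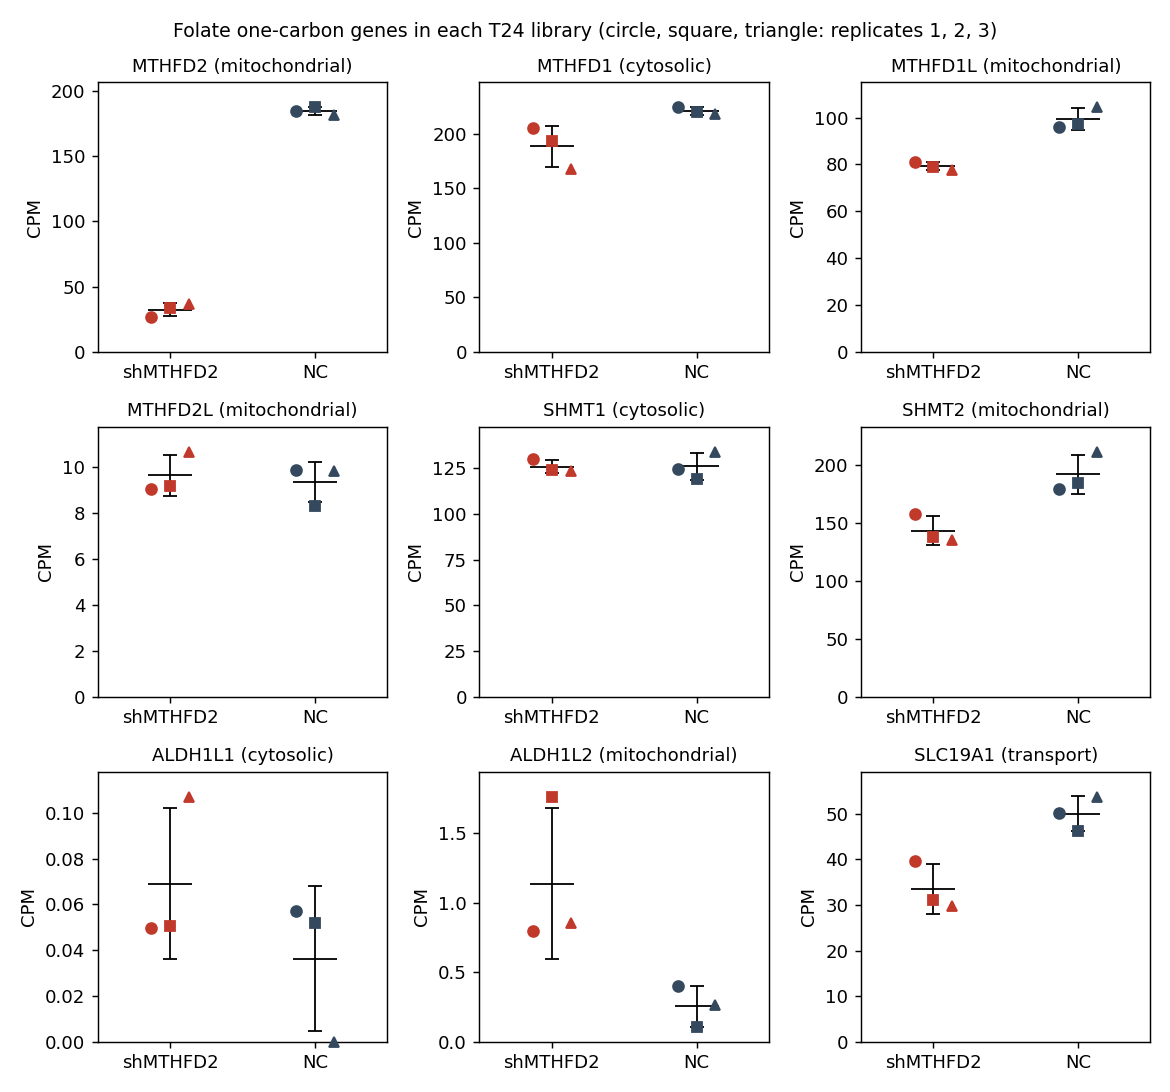
CPM of each of the 9 genes in every library, with shMTHFD2 on the left and NC on the right of each panel, the line at the mean and the bar at 1 SD (n = 3 each). MTHFD2, MTHFD1L, SHMT2, SLC19A1 and MTHFD1 lie lower in all 3 shMTHFD2 libraries, ALDH1L2 lies higher, and MTHFD2L and SHMT1 overlap between the groups.

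MTHFD2 (GRCh38 chromosome 2, 74198562 to 74217565, plus strand) encodes the mitochondrial methylene-tetrahydrofolate dehydrogenase and cyclohydrolase that the hairpin targets. It stood at 26.7, 33.6 and 36.7 CPM in shMTHFD2 replicates 1 to 3, against 185, 188 and 181 CPM in NC replicates 1 to 3. The groups lay far apart, and the shMTHFD2 libraries held 14.5%, 18.2% and 19.9% of the NC mean. In log2 terms MTHFD2 changed by -2.51 ± 0.13 (SE; edgeR adjusted p = 1.8e-06), with a 95% interval from -2.79 to -2.24. MTHFD2 passed in all 15 fits run, at -2.64 to -2.39, with -2.46 for shMTHFD2 replicate 2 alone against NC. Few reads were assigned to copies: the 7 MTHFD2 pseudogenes in the table held at most 1 count in any library. The gene overlaps exons of SLC4A5 on the opposite strand over 1324 bases, and SLC4A5 held 4, 14 and 11 counts in shMTHFD2 libraries and 11, 4 and 5 in NC libraries.

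MTHFD2L (chromosome 4, 74114174 to 74303099, plus strand) is the close relative of MTHFD2 that catalyses the same mitochondrial step. It stood at 9.05, 9.17 and 10.7 CPM in the shMTHFD2 libraries, against 9.86, 8.32 and 9.83 CPM in the NC libraries. The groups overlapped, and the estimated log2 change was 0.04 ± 0.15 (SE; edgeR adjusted p = 0.858), with a 95% interval from -0.28 to 0.37. Its sign was not stable, and 5 alternative fits gave a value below 0. Per length of the union of annotated exons, MTHFD2 mRNA was 6.77 ± 0.73 times that of MTHFD2L in shMTHFD2 libraries and 40.2 ± 4.64 times in NC libraries (SD, n = 3 each). The size of this ratio depends on the gene length used. With the longest transcript it was 2.4 in shMTHFD2 and 14.2 in NC libraries, and with APPRIS principal transcripts 1.73 and 10.3. MTHFD2 was the more abundant of the pair in every library.

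SHMT2 (chromosome 12, 57229327 to 57234935, plus strand) encodes the mitochondrial serine hydroxymethyltransferase, the entry of serine carbon into the mitochondrial arm. It stood at 157, 138 and 135 CPM in shMTHFD2 libraries, against 179, 185 and 211 CPM in NC libraries. The groups did not overlap, with shMTHFD2 replicate 1 nearest to NC replicate 1. SHMT2 fell by 0.42 ± 0.11 on the log2 scale (SE; edgeR adjusted p = 0.0212). With shMTHFD2 replicate 2 alone it was -0.48 (edgeR adjusted p = 0.0162), and the call was lost without NC replicate 1 (edgeR adjusted p = 0.0541) or NC replicate 3 (edgeR adjusted p = 0.097).

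SHMT1 (chromosome 17, 18327860 to 18363563, minus strand), the cytosolic counterpart of SHMT2, gave 130, 124 and 124 CPM in shMTHFD2 libraries, against 125, 119 and 134 CPM in NC libraries. The groups overlapped. SHMT1 differed by -0.0013 ± 0.10 on the log2 scale (SE; edgeR adjusted p = 0.994), with a 95% interval from -0.21 to 0.21. On the log2 CPM scale the SHMT2 to SHMT1 ratio was 0.27, 0.15 and 0.13 in shMTHFD2 libraries, against 0.52, 0.63 and 0.66 in NC libraries. The ratio was lower in all 3 shMTHFD2 libraries by 0.42 on average, with a two-sided exact permutation p = 0.1, the smallest that 3 against 3 libraries allow.

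MTHFD1L (chromosome 6, 150865549 to 151101887, plus strand) encodes the mitochondrial enzyme that frees formate for export. It stood at 81.0, 79.0 and 77.7 CPM in shMTHFD2 libraries, against 96.2, 97.3 and 105 CPM in NC libraries. The shMTHFD2 libraries lay close together and below every NC library. MTHFD1L fell by 0.33 ± 0.10 on the log2 scale (SE; edgeR adjusted p = 0.0365), with a value of -0.34 with shMTHFD2 replicate 2 alone (edgeR adjusted p = 0.048). The call sits near the threshold: it was lost without the filter on low counts (edgeR adjusted p = 0.0548) and without NC replicate 1, 2 or 3 or shMTHFD2 replicate 2 (edgeR adjusted p up to 0.143), while the log2 fold change stayed between -0.36 and -0.29.

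MTHFD1 (chromosome 14, 64388031 to 64463457, plus strand), the cytosolic enzyme that joins formate to folate and also carries the dehydrogenase and cyclohydrolase steps, stood at 205, 193 and 168 CPM in shMTHFD2 libraries, against 224, 220 and 218 CPM in NC libraries. All 3 shMTHFD2 libraries lay below the NC libraries, with replicate 3 the lowest. The log2 fold change of -0.23 ± 0.10 (SE) did not pass the test (edgeR adjusted p = 0.142). With each library's trends on GC content and gene length removed it was -0.36 ± 0.08 and passed (edgeR adjusted p = 0.00826). On the log2 CPM scale the MTHFD1L to MTHFD1 ratio averaged -1.24 ± 0.12 in shMTHFD2 libraries and -1.15 ± 0.08 in NC libraries (SD, n = 3 each; two-sided exact permutation p = 0.4), so the difference of -0.09 was within the spread of the libraries.

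The start regions of MTHFD2, MTHFD1L and MTHFD1 are shown because ATF4 and MYC, factors known to raise mitochondrial folate genes, were measured in the same libraries. ATF4 mRNA stood at 463, 473 and 563 CPM in shMTHFD2 libraries, against 479, 483 and 543 CPM in NC libraries (log2 fold change -0.0048 ± 0.11, edgeR adjusted p = 0.983). MYC stood at 115, 105 and 105 CPM in shMTHFD2 libraries, against 143, 131 and 148 CPM in NC libraries, and fell by 0.38 on the log2 scale (edgeR adjusted p = 0.0245). ATF4 overlapped between the groups and MYC did not. RefSeq windows on GRCh38.p14, from 250 bases before to 50 bases after a transcription start, were found for 7 members, all but SHMT2 and ALDH1L2. MTHFD1L and SLC19A1 have 4 listed starts each, and MTHFD2L and ALDH1L1 have 2. Only the window nearest the start of the longest APPRIS principal transcript was searched for each gene. Both strands were searched for TGATGNAA, a core of the element bound by C/EBP and ATF factors, and for CACGTG, an E box that reads the same on both strands. TGATGNAA is held by 3.62% of the 35116 human windows of this length and CACGTG by 7.26%. Capitals mark the matches, which do not overlap each other. The windows are chr2:74198365-74198664 for MTHFD2, chr6:150866083-150866382 for MTHFD1L and chr14:64388103-64388402 for MTHFD1, all on the plus strand.
MTHFD2: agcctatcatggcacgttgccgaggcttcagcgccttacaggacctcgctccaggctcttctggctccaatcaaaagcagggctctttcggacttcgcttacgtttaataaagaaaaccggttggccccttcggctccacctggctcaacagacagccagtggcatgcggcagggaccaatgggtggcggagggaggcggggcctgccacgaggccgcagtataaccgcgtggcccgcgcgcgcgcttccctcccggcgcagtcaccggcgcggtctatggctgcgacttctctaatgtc
MTHFD1L: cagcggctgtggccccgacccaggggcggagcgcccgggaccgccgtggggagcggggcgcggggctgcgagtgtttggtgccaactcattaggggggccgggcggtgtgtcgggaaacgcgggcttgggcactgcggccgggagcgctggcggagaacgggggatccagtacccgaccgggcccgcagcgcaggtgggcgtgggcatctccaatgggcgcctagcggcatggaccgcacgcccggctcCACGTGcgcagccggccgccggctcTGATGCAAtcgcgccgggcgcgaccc
MTHFD1: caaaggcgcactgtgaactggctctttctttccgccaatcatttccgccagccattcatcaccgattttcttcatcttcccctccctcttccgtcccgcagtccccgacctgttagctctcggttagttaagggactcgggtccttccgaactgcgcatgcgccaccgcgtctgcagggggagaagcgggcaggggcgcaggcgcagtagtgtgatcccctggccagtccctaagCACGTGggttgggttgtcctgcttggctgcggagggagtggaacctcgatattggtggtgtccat
The MTHFD1L window held 1 match to each motif, with the E box at the start site and TGATGCAA downstream of it. The MTHFD1 window held 1 E box, and the windows of MTHFD2, MTHFD2L, SHMT1, ALDH1L1 and SLC19A1 held neither. A match describes letters in this window and shows no binding.

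ALDH1L2 (chromosome 12, 105019784 to 105084577, minus strand) was the member that rose. It held 16, 35 and 16 counts in shMTHFD2 libraries, against 7, 2 and 5 counts in NC libraries, or 0.795, 1.76 and 0.857 CPM against 0.399, 0.104 and 0.266 CPM. The groups did not overlap, and the highest library was shMTHFD2 replicate 2. That library had the lowest sum of fibroblast markers in its group, though above every NC library, and a link to ALDH1L2 was not tested. ALDH1L2 rose by 2.15 ± 0.52 on the log2 scale (SE; edgeR adjusted p = 0.0168), and 2.76 with shMTHFD2 replicate 2 alone (edgeR adjusted p = 0.00785). Summed over libraries, 67 counts in the shMTHFD2 group stood against 14 in the NC group, a ratio per library size of 4.54 with an exact 95% interval of 2.53 to 8.75 for counting error only. ALDH1L2 passed the low-count filter only through the shMTHFD2 group, where 3 libraries reached its level and no NC library did. The call was lost without NC replicate 2 or 3 or shMTHFD2 replicate 2 (edgeR adjusted p = 0.0514, 0.0587 and 0.0658). C12orf45, which overlaps 145 exonic bases of ALDH1L2 on the opposite strand, was at -0.46 on the log2 scale and did not pass (edgeR adjusted p = 0.0866).

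ALDH1L1 (chromosome 3, 126103562 to 126197994, minus strand), the cytosolic counterpart, held 1, 1 and 2 counts in shMTHFD2 libraries and 1, 1 and 0 in NC libraries. All values were at or under the limit of 3 counts, so no fold change is given and a difference was not detectable at this depth.

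SLC19A1 (chromosome 21, 45493572 to 45544411, minus strand) encodes the reduced folate carrier of the plasma membrane. It stood at 39.7, 31.0 and 29.7 CPM in shMTHFD2 libraries, against 50.2, 46.2 and 53.7 CPM in NC libraries. The groups did not overlap, and shMTHFD2 replicate 1 lay nearest to the NC libraries. SLC19A1 changed by -0.58 ± 0.13 in log2 terms (SE; edgeR adjusted p = 0.012), -0.70 with shMTHFD2 replicate 2 alone (edgeR adjusted p = 0.00507) and -0.53 without NC replicate 3, where the call was lost (edgeR adjusted p = 0.0505). Its exons overlap those of COL18A1 on the opposite strand over 1401 bases. COL18A1 held 9271 to 12751 counts in shMTHFD2 libraries and 12053 to 13157 in NC libraries. Scaled by library size it was at 634, 555 and 497 CPM against 687, 649 and 699 CPM, without overlap. Its log2 fold change of -0.27 ± 0.11 (SE) did not pass (edgeR adjusted p = 0.118). As the strandedness of the counting is not given, reads over the shared stretch could belong to either gene, and their part in the SLC19A1 value was not tested.

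Levels of different genes were compared per kilobase, as RPKM on the union of each gene's annotated exons. In the shMTHFD2 libraries the order was SHMT2 (29.6 ± 2.5 RPKM), MTHFD1 (20.1 ± 2.02), SHMT1 (17.3 ± 0.48), MTHFD1L (15.8 ± 0.34), MTHFD2 (6.65 ± 1.05), SLC19A1 (3.35 ± 0.54) and MTHFD2L (0.981 ± 0.091; SD, n = 3). In the NC libraries it was SHMT2 (39.6 ± 3.53 RPKM), MTHFD2 (37.9 ± 0.65), MTHFD1 (23.5 ± 0.36), MTHFD1L (19.8 ± 0.91), SHMT1 (17.3 ± 1.03), SLC19A1 (5.01 ± 0.38) and MTHFD2L (0.951 ± 0.09; SD, n = 3). MTHFD2 thus ranked 5 in the shMTHFD2 libraries and 2 in the NC libraries, and SHMT2 ranked 1 in both. SHMT2 and MTHFD2 overlapped in the NC libraries, while the other neighbours in either order did not, MTHFD1 and SHMT1 in the shMTHFD2 libraries by a narrow margin. ALDH1L2 averaged 0.134 RPKM in shMTHFD2 libraries and 0.0301 RPKM in NC libraries, below MTHFD2L, and ALDH1L1 was lower still. The order depends on the length assigned to a gene: with the longest APPRIS principal transcript, MTHFD1 stood at 60.1 RPKM in shMTHFD2 libraries and 70.4 RPKM in NC libraries, and MTHFD2 ranked 6 in the shMTHFD2 and 4 in the NC libraries. SHMT2 had the highest mean in NC libraries under all 3 lengths tried, but on exon unions MTHFD2 exceeded it in NC replicates 1 and 2, and without NC replicate 3 the means were 37.6 RPKM for SHMT2 and 38.3 RPKM for MTHFD2. With APPRIS principal transcripts MTHFD1 exceeded SHMT2 in NC replicate 1. In the shMTHFD2 libraries SHMT2 ranked 2 under both other lengths. With the longest transcript it averaged 41.9 RPKM, behind SHMT1 at 45.7 RPKM. With APPRIS principal transcripts it averaged 56.5 RPKM, behind MTHFD1 at 60.1 RPKM. In all 3 orders MTHFD2L, ALDH1L2 and ALDH1L1 were the lowest in both groups.

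**Figure D2:**
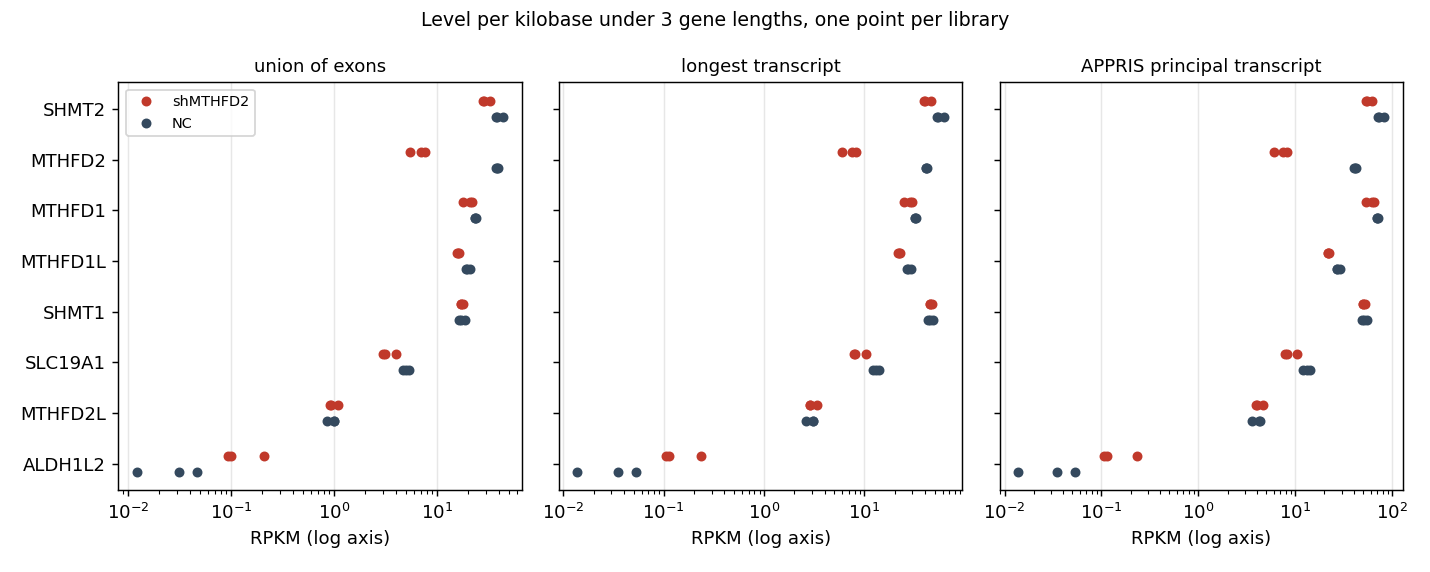
RPKM on a log axis for 8 genes under 3 definitions of gene length, 1 point per library, shMTHFD2 above NC in each row. MTHFD2 drops well below its NC points in all 3 panels, while the SHMT1 and MTHFD2L points of both groups overlap; ALDH1L1 is left out because its counts were at or under the limit.

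Summed over genes, the mitochondrial enzymes were at 55.1, 52.3 and 52.1 RPKM in shMTHFD2 libraries, against 95.2, 96.9 and 103 RPKM in NC libraries. Most of that gap was MTHFD2 itself, which made up 12.6% ± 2.33 of the mitochondrial sum in shMTHFD2 libraries and 38.6% ± 2.05 in NC libraries (SD, n = 3 each). Without MTHFD2 the mitochondrial sum was 49.6, 45.4 and 44.5 RPKM in shMTHFD2 libraries, against 57.3, 58.4 and 65.5 RPKM in NC libraries. The groups did not overlap in either sum. The cytosolic enzymes summed to 39.7, 37.6 and 34.9 RPKM in shMTHFD2 libraries, against 41.1, 39.8 and 41.6 RPKM in NC libraries, where shMTHFD2 replicate 1 and NC replicate 2 nearly met. With the longest transcript the cytosolic sums overlapped, at 77.2 RPKM in shMTHFD2 replicate 1 and 75.5 RPKM in NC replicate 2. The mitochondrial share of both arms was 58.7% ± 1.01 in shMTHFD2 libraries and 70.6% ± 0.7 in NC libraries with exon unions (SD, n = 3 each). With APPRIS principal transcripts it was 44.8% and 55.0%, so the share depends on the gene length used. These sums are a description and were not tested.

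**Figure D3:**
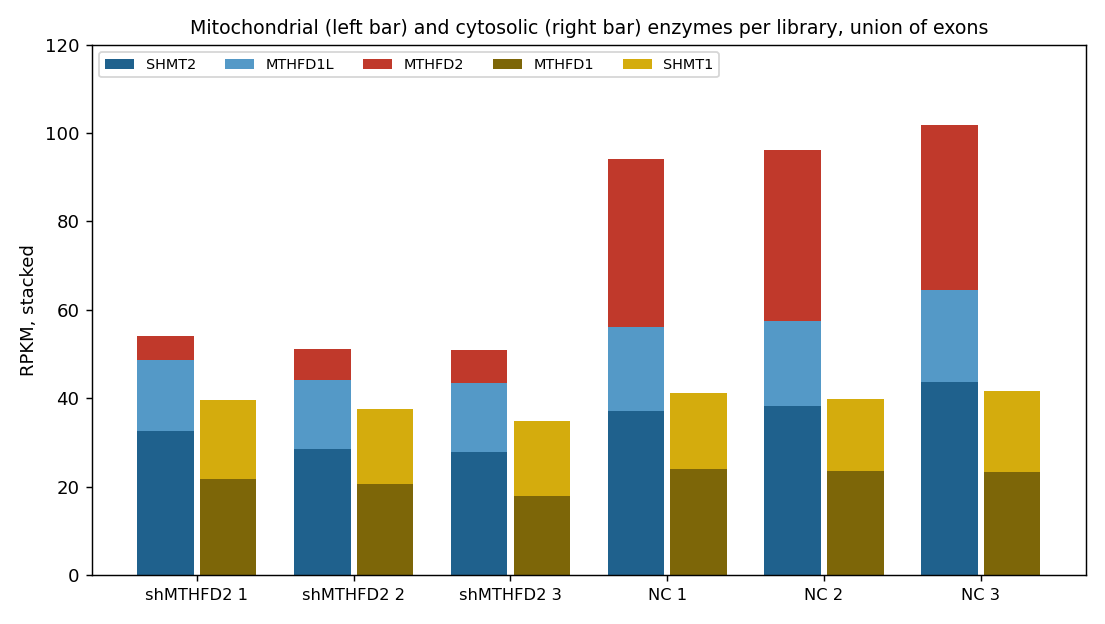
RPKM of SHMT2, MTHFD1L and MTHFD2 (left bar, mitochondrial) and of MTHFD1 and SHMT1 (right bar, cytosolic) stacked for each library, shMTHFD2 libraries first. The MTHFD2 block is far shorter in the 3 shMTHFD2 libraries than in the 3 NC libraries, and the SHMT2 and MTHFD1L blocks are also shorter; MTHFD2L and the ALDH1L genes are too low to be seen and are not drawn.

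Of the wider folate pathway, 24 genes were listed and all were found in the table. Of these, 17 were tested, 1 rose and 1 fell, against 17.3% of all tested genes in either direction, and the median log2 fold change of the 17 was -0.07. The groups did not overlap for 8 of the 17, against 39.1% of all tested genes. The count that passed depended on the fit, as did the count over all genes. It was 7 with GC and length trends removed, where 3636 of all 13896 genes passed. It was 1 without NC replicate 1, 2 or 3, where 1003 of 14277, 1679 of 14239 and 986 of 14248 genes passed. It was also 1 without shMTHFD2 replicate 2, where 1469 of 14166 genes passed. Without shMTHFD2 replicate 3 it was 5, where 2645 of 14195 genes passed.

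Among genes of folate transport and retention, FPGS, which adds the glutamate tail that keeps folate in the cell, stood at 71.6, 55.9 and 65.7 CPM in shMTHFD2 libraries, against 80.1, 77.1 and 99.0 CPM in NC libraries. It fell by 0.41 ± 0.13 on the log2 scale (SE; edgeR adjusted p = 0.0488), a call lost in 5 of the 6 fits that leave out a library, each except the one without shMTHFD2 replicate 1. SLC25A32, the mitochondrial folate carrier, was at -0.27 ± 0.10 and the proton-coupled transporter SLC46A1 at 0.35 ± 0.13, and neither passed (edgeR adjusted p = 0.0762 and 0.0834). The hydrolase GGH, which removes the glutamate tail, was at 0.11 ± 0.13. The folate receptors FOLR1, FOLR2 and FOLR3 held at most 2 counts in any library.

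TYMS, the thymidylate synthase, was at -0.25 ± 0.12 and did not pass (edgeR adjusted p = 0.152). In the methyl branch, MTR, the methionine synthase, stood at 68.8, 82.5 and 62.0 CPM in shMTHFD2 libraries, against 58.7, 58.8 and 49.3 CPM in NC libraries (log2 fold change 0.36 ± 0.13, edgeR adjusted p = 0.074), without overlap. MTRR, which keeps methionine synthase active, was at -0.19 ± 0.10. Among users of formyl-folate, the purine enzymes ATIC (-0.29 ± 0.10, edgeR adjusted p = 0.0787) and GART (-0.06 ± 0.11) did not pass, nor did MTFMT, which formylates mitochondrial initiator tRNA (-0.10 ± 0.15). MTHFS and FTCD were too low to be tested. In the glycine cleavage system, GCSH was at -0.39 ± 0.15 (edgeR adjusted p = 0.0915) and DLD at 0.03 ± 0.10. GLDC and AMT held at most 37 counts in any library, and SARDH and DMGDH of choline breakdown at most 1.

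**Figure D4:**
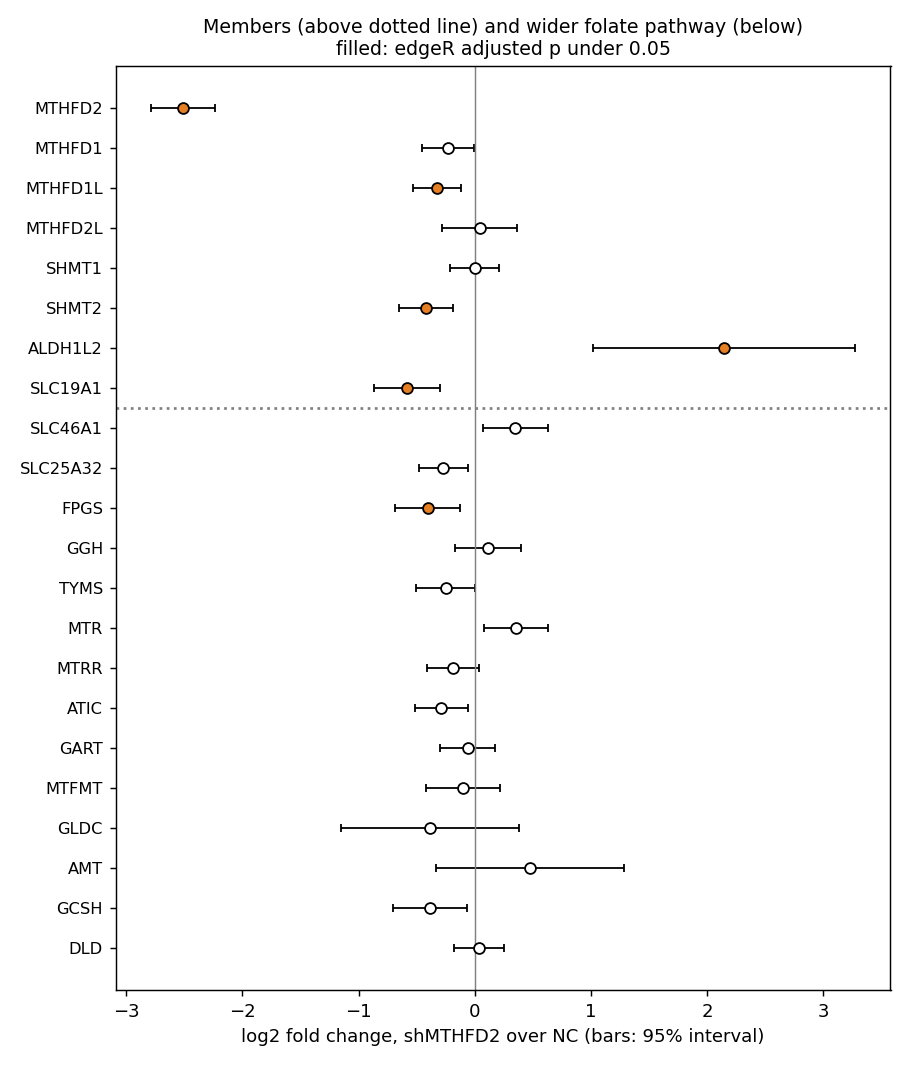
log2 fold change of shMTHFD2 over NC with its 95% interval for the 8 tested members, above the dotted line, and 14 of the 17 tested genes of the wider pathway, below it; filled points have an edgeR adjusted p under 0.05. MTHFD2 at -2.51 and ALDH1L2 at 2.15 lie apart from the others, which lie between -0.58 and 0.47.

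By the root mean square distance between log2 CPM profiles centred on the NC mean, taken over the 6 libraries among 10746 genes averaging 2 or more in log2 CPM, the genes nearest to MTHFD2 were CCBE1 (0.41), CXCL1 (0.41), IL6 (0.42), IGFN1 (0.51) and CXCL8 (0.57). This distance picks genes whose change is near that of MTHFD2. That these 5 genes fell, by 1.97 to 2.91 on the log2 scale, therefore follows from how they were chosen. CXCL1, IL6 and CXCL8 encode secreted cytokines. The closest, CCBE1, stood at 2.44, 1.46 and 1.5 CPM in shMTHFD2 libraries, against 10.0, 8.94 and 7.75 CPM in NC libraries.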

How the data were processed

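RNA from 6 T24 libraries was measured by sequencing. The deposited table holds raw read counts for each gene symbol, without normalization by the authors; HISAT2 2.0.4 and GRCh38 are named per the submitters' processing notes, and no source used here gives the counter, the annotation or the strandedness. Groups came from the titles. The shMTHFD2 and NC libraries were compared in edgeR 4.0.16 (R 4.3.3) by the robust quasi-likelihood test, after filterByExpr and TMM scaling. P-values were adjusted by Benjamini and Hochberg across the 13896 genes, and those under 0.05 were called. Standard errors were derived from the fold change and its F statistic. Values in CPM used TMM-scaled sizes, and log2 CPM a prior count of 2. Ratios were tested by exact two-sided permutation over libraries. Coordinates and lengths came from GENCODE release 29 (GRCh38), matched by symbol, and promoter windows from RefSeq (GRCh38.p14). No sequence of the hairpin was used here.

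The counts of replicates differed beyond sampling noise, with a chi-square of at least 2.56 times its degrees of freedom, so each library counted once. The fit and DESeq2 1.42.0 were tested on simulated counts, with 200 of 13896 genes changed by 1.5-fold to 4-fold. There edgeR recovered 62% of genes changed 1.5-fold and 78% changed 2-fold, with 4.65% false calls. DESeq2 recovered 70% and 78%, with 9.29% false calls, above the threshold of 0.05. The data held more calls (2402), and changes as small as those of SHMT2 and MTHFD1L were not simulated. These rates therefore do not describe such calls.

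Genes named are the 9 members, the lists of the wider pathway and markers (the counts of the wider pathway include 3 tested genes that are not reported here, among them the 1 that rose), ATF4 and MYC, copies and overlapping genes, and the 5 genes nearest to MTHFD2 in profile. The members and lists were chosen with earlier results of these data known. Alternatives were RLE scaling, DESeq2, other low-count filters, a replicate block, GC and length offsets, each library left out, shMTHFD2 replicate 2 alone, a threshold of 0.01, a prior count of 0.5 and other gene lengths.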

Additional observations from a re-analysis of the deposited data

How the results depend on the processing

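MTHFD2 kept its call in every fit, and RLE scaling and DESeq2 kept the calls of all 5 members. The replicate number as a block gave 5062 changed genes against 2402, 9 of the wider pathway and a call for MTHFD1 (-0.23, edgeR adjusted p = 0.0302). Deviations from the group mean correlated at -0.0204, 0.297 and 0.353 between libraries numbered 1, 2 and 3. For shMTHFD2 replicates 2 and 3 the best correlation was with the NC library of the same number. For shMTHFD2 replicate 1 it was with NC replicate 3 (0.0477). The titles name no batch shared by a number, and with 3 libraries in a group these correlations cannot show whether there was one. GC and length offsets gave 3636 changed genes, 7 of the wider pathway and MTHFD1 at -0.36, and with the replicate block 5805, 9 and -0.36; the cause was not tested. These 2 fits put MTHFD2L at -0.19 and -0.18, and shMTHFD2 replicate 2 alone at -0.031, with 4432 genes changed and 7 of the wider pathway. A lone library is assumed there to vary like the others. The stricter filter removed ALDH1L2 from the test, leaving 4 members called, and put SHMT1 at 0.0041, and without any filter MTHFD1L was at -0.33 and lost its call. At a threshold of 0.01, 749 genes, 1 member and 1 gene of the wider pathway passed. 

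Leaving out 1 library gave 986 to 2645 changed genes, 1 to 5 members and 1 to 5 genes of the wider pathway, with fewer samples in each fit. The log2 fold change then ranged from -0.36 to -0.29 for MTHFD1L, -0.49 to -0.35 for SHMT2, 1.68 to 2.58 for ALDH1L2, -0.72 to -0.51 for SLC19A1, -0.040 to 0.086 for MTHFD2L, -0.048 to 0.043 for SHMT1 and -0.49 to -0.29 for FPGS. Those of MTHFD2L and SHMT1 changed sign: without NC replicate 2 and without shMTHFD2 replicate 3 MTHFD2L was at -0.040 and -0.038, and without NC replicate 3, shMTHFD2 replicate 2 and shMTHFD2 replicate 3 SHMT1 was at 0.043, 0.0069 and 0.0078. The ratios kept their sign with a prior count of 0.5 and without any 1 library.

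By construction a shorter length raises RPKM. NC levels with the longest transcript were 41.4 for MTHFD2, 32.4 for MTHFD1, 27.6 for MTHFD1L, 2.93 for MTHFD2L, 45.7 for SHMT1, 56.1 for SHMT2, 0.00789 for ALDH1L1 and 13.1 for SLC19A1. With APPRIS principal transcripts, chosen after seeing the data, they were 41.4, 70.4, 27.6, 4.06, 51.2, 75.5, 0.0111 and 13.1 in the same order. Genes under about 0.171 CPM could not be measured at this depth.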
